A study of Mus musculus with 12 samples.

Results

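The genes described here are targets of the transcription factor NRF2 and antioxidant enzymes, measured in lungs of neonatal mice that lacked or carried Sphk1 and breathed oxygen-rich or room air. Their list holds 46 genes, grouped here by their roles. Of these, 40 had a transcript on the array with that gene symbol alone, of 22180 genes with such a transcript. Tkt, Prdx1 and Ftl1 had only transcripts shared with another symbol, and G6pdx, Prdx5 and Prdx6 are not named in the gene table used here, so these 6 genes have no value. RNA from a single lobe of each mouse's right lung (the superior) went onto 12 Affymetrix arrays, with 3 individual mice in each of 4 groups. The groups were Sphk1 knockout pups in hyperoxia (SphK-1 KO HO), Sphk1 knockout pups in room air (SphK-1 KO RA), wild type pups in hyperoxia (WT HO) and wild type pups in room air (WT RA). Hyperoxia was 75% oxygen, begun on postnatal day 1 and kept for 7 days. The knockout lacks sphingosine kinase 1, an enzyme that makes the lipid messenger sphingosine 1-phosphate, in every cell of the body. The wild type controls were of a mixed background, made from C57BL/6 and the strain on which the knockout arose, and the nursing mothers were moved between both atmospheres.

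NRF2, encoded by Nfe2l2, is bound in resting cells by KEAP1, which directs it to degradation. Oxidants and electrophiles modify KEAP1, NRF2 then enters the nucleus, joins a small MAF protein and binds the antioxidant response element of its target genes. These targets import cystine, make and recycle glutathione and thioredoxin, supply NADPH, store iron, break down heme and detoxify quinones and epoxides. Mice without Nfe2l2 are known to be more sensitive to lung injury by oxygen.

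The antioxidant response element holds the core TGACNNNGC, or, in some genes, TGAGNNNGC, where N is any base. Both cores were searched on both strands of the promoters that RefSeq gives for the mouse assembly GRCm38.p6, each 250 bases before to 50 bases after a gene's start. Of the 46 listed genes 40 had a promoter entry, and TGACNNNGC was present for 10 of these (25%), against 14% of all genes with an entry. TGAGNNNGC was present for 6 of the 40 genes (15%), against 19.8% of all genes. The windows below are those of the gene for NRF2 itself and of some targets with a match, with 1 match shown for each. Srxn1 and Gstp1 had further matches that are not shown. Gclc, Nqo1, Hmox1, Akr1b8, Ephx1, Gpx3 and Sod3 had no match or no promoter entry. Bases outside these windows were not searched, so the lack of a match does not show that a gene lacks the element. The core is in capitals, and where it lies on the opposite strand the capitals show it reversed and complemented. A match describes the letters and is not a measured binding site.
Nfe2l2, chr2:75704870-75704913, - strand: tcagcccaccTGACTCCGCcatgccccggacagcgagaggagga
Gclm, chr3:122245398-122245456, + strand: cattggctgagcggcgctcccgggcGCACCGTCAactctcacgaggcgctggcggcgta
Gsta3, chr1:21240439-21240497, + strand: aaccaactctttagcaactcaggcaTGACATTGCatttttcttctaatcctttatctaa
Me1, chr9:86695887-86695945, - strand: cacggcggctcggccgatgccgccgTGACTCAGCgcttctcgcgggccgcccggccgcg
Txnrd1, chr10:82859089-82859147, + strand: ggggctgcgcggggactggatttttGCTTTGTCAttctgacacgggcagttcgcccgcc
Slc7a11, chr3:50443677-50443735, - strand: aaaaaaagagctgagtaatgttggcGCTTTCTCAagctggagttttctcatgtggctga
Srxn1, chr2:152105454-152105512, + strand: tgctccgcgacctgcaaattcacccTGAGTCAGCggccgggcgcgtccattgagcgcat
Gstp1, chr19:4037953-4038011, - strand: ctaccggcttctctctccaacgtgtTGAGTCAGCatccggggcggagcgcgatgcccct
The core began at position -240 for Nfe2l2, -134 for Gclm, -121 for Gsta3, -6 for Me1, -92 for Txnrd1, -97 for Slc7a11, -45 for Srxn1 and -74 for Gstp1, counted from the start of the gene. It lay on the opposite strand for Gclm, Txnrd1 and Slc7a11.

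All values are log2 expression, background corrected and quantile normalised, so that a difference of 1 is a 2-fold change. The surfactant gene Sftpc, the club cell gene Scgb1a1 and the alveolar type 1 gene Ager were at group means of 11.46 to 13.32. The arrays SphK-1 KO RA 1 and SphK-1 KO HO 1 stood apart, with a median correlation with their group of 0.963 and 0.964, against 0.969 to 0.981 for the others. The methods name male pups, yet 8 arrays had high Xist (8.41 to 10.15) with low Y-linked genes, and the other 4, WT RA 3, SphK-1 KO RA 1, SphK-1 KO HO 1 and SphK-1 KO HO 2, had low Xist (3.47 to 4.69) with high Y-linked genes. Sphk1 itself read 5.70, 6.28 and 5.57 in SphK-1 KO HO, 5.59, 5.78 and 5.84 in SphK-1 KO RA, 6.79, 7.50 and 7.04 in WT HO, and 5.37, 4.90 and 5.40 in WT RA. Sphk1 was lower in SphK-1 KO HO than in WT HO by 1.26 ± 0.23 (adjusted p = 0.00816), with no overlap. In room air the arrays labelled knockout were not below those labelled wild type (0.51 ± 0.23, adjusted p = 0.386). The oxygen effect was 0.11 in SphK-1 KO and 1.89 in WT (adjusted p = 0.00976 for the difference). The sources used here do not place its probes inside or outside the deleted part, and groups are named by their labels throughout. A gene was called where its adjusted p in limma, over all 41345 transcripts, was under 0.05.

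In wild type lungs, hyperoxia went with higher expression of most of the antioxidant genes. Of the 40, 29 were higher in WT HO than in WT RA and 1 was lower, where 8.58% of all transcripts were called higher and 6.35% lower. Among the 16522 genes with expression above the lowest values the shares were 16.0% and 12.4%. The median difference of the 40 was 0.81 on the log2 scale, against 0.01 over all transcripts. The 29 rose by 0.59 to 3.20, with a median of 1.27 (2.41-fold), and 17 of them rose at least 2-fold. In whole lung, more cells of a type and more RNA per cell cannot be told apart. In knockout lungs fewer were called: 10 were higher in SphK-1 KO HO than in SphK-1 KO RA and 1 was lower, where 1.02% and 1.32% of all transcripts and 2.09% and 2.68% of expressed genes were called. The median difference was 0.42. All 10 were among the 29 (34.5% of the wild type list and 100% of the knockout list), and 26 of the 29 had a positive estimate in the knockout. With only the 6 knockout arrays in the limma fit 0 of the 40 were called (smallest adjusted p = 0.0649, and 22 higher and 3 lower at an unadjusted p under 0.05). With only the 8 arrays of high Xist 0 were called as well (smallest adjusted p = 0.0589, 16 higher and 4 lower unadjusted). In the knockout, arrays with the same replicate number deviated together. With this number as a block, shared by all groups in the fit, the calls were 13 higher and 0 lower, the 10 and Nqo1, Taldo1 and Gpx1. At 22 genes the estimate in the knockout was positive with an unadjusted p under 0.05. In either direction 25 of the 40 had such a p, against 5797 of all 41345 transcripts. P-values were adjusted within each comparison, and 6171 transcripts were called in WT and 967 in SphK-1 KO. A call in SphK-1 KO therefore needed a smaller unadjusted p. In limma, Gpx1 had an unadjusted p of 0.00228 in SphK-1 KO, not called, and 0.00652 in WT, called. A gene called in WT only is thus not shown to lack an oxygen effect in the knockout.

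**Figure D1:**
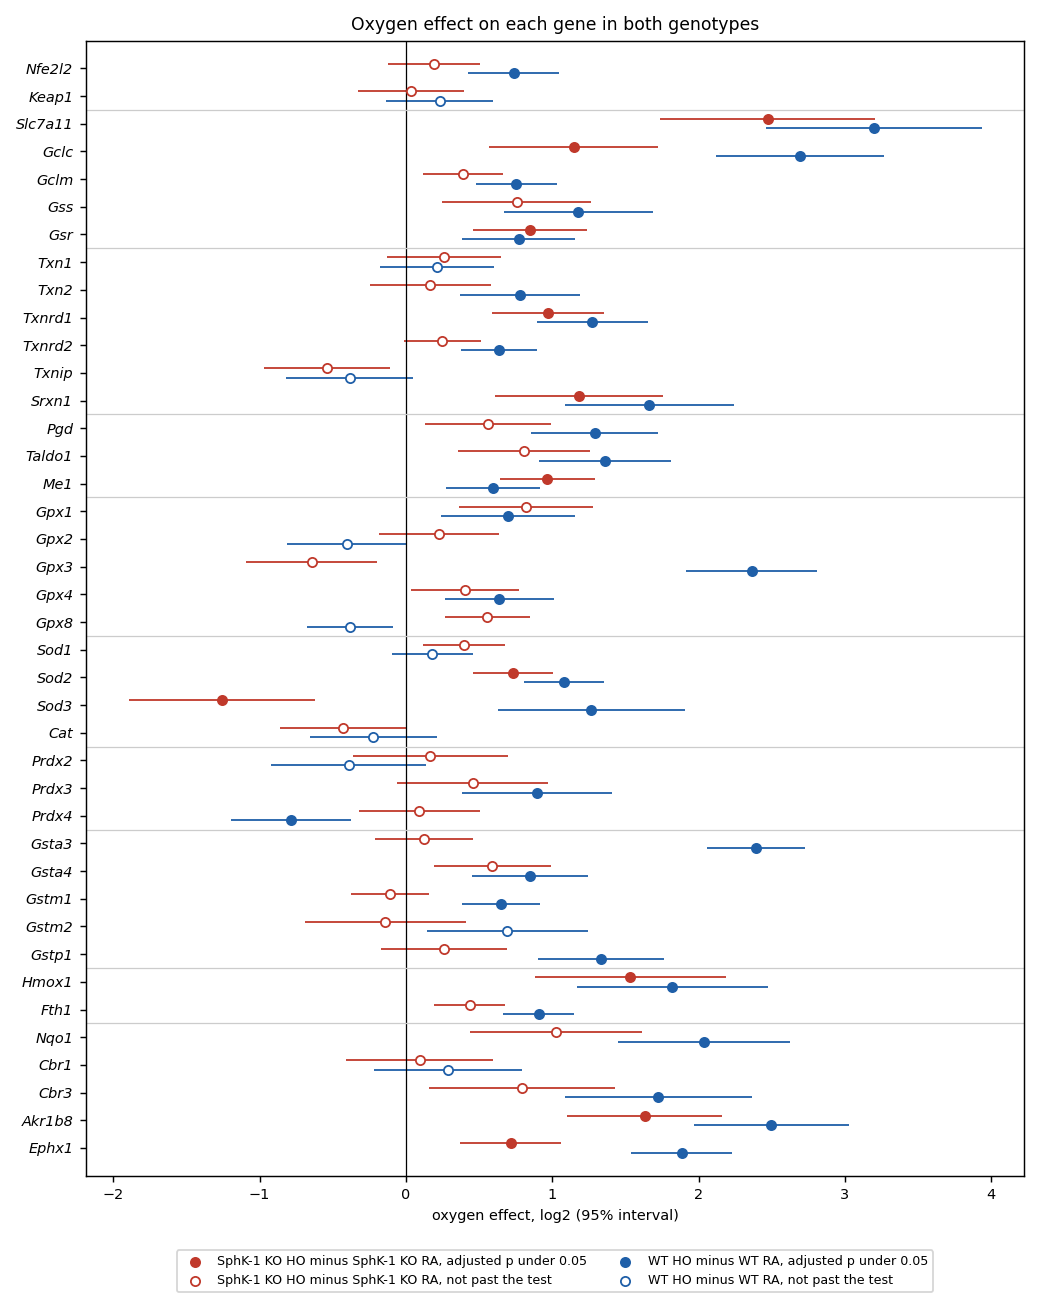
Oxygen effect on each of the 40 genes (y axis, grouped by role) in SphK-1 KO (red) and WT (blue) lungs, as a log2 difference with its 95% interval (x axis, 3 mice per group). Filled points passed the test at an adjusted p under 0.05. In WT 29 filled points lie right of 0, and in SphK-1 KO 10 do.

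The mean of the 40 genes on each array, each gene centred on its own 12-array mean, did not overlap between hyperoxia and room air in either genotype. The mean was -0.06, 0.09 and 0.25 in SphK-1 KO HO, against -0.63, -0.29 and -0.22 in SphK-1 KO RA, and 0.57, 0.65 and 0.67 in WT HO, against -0.47, -0.31 and -0.25 in WT RA. The 3 SphK-1 KO HO arrays lay between both room air groups below and WT HO above. The room air groups overlapped. Gene by gene, all 3 arrays of SphK-1 KO HO lay above those of SphK-1 KO RA at 22 of the 40 genes and below them at 3, against 8.03% and 9.10% of all transcripts. WT HO lay above WT RA on all arrays at 32 and below at 4, against 18.9% and 15.4% of all transcripts. SphK-1 KO HO lay above WT HO at 2 and below it at 24, against 10.8% and 12.8%. In room air SphK-1 KO lay above WT at 5 and below at 4, against 10.2% and 8.63%.

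**Figure D2:**
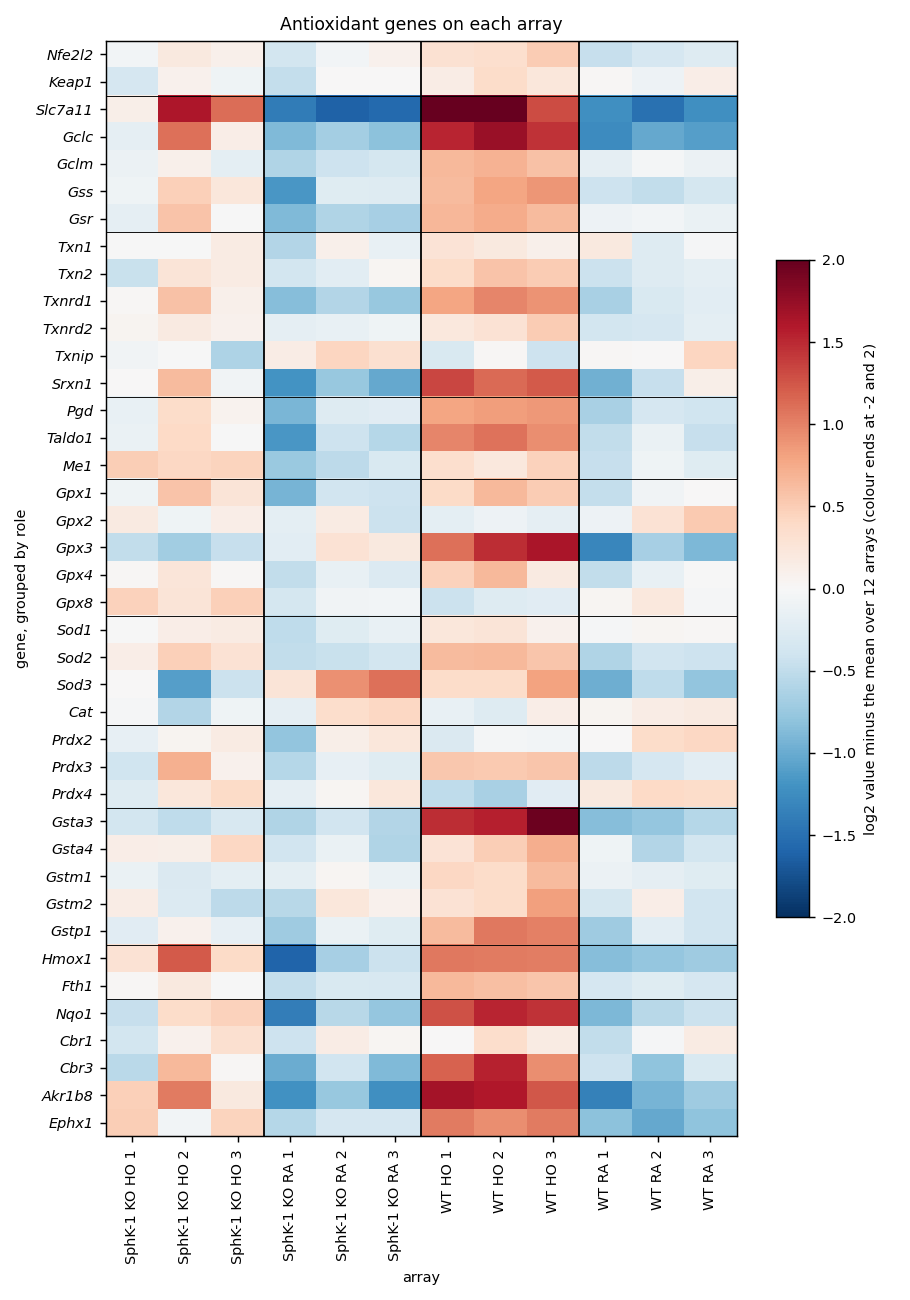
Each gene (rows, grouped by role) on each array (columns), as the log2 value minus the gene's mean over 12 arrays. WT HO is red for most genes, SphK-1 KO HO is paler, and the room air arrays are mostly blue. Genes that do not follow this include Gpx2, Gpx8, Sod3, Prdx2, Prdx4, Txnip and Cat.

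Nfe2l2, the gene for NRF2, read 9.65, 9.68 and 9.86 in WT HO, against 8.89, 9.01 and 9.08 in WT RA. It was higher in WT HO on every array, by 0.74 ± 0.14 (SE, adjusted p = 0.00476). In the knockout it read 9.29, 9.53 and 9.45 in SphK-1 KO HO, against 8.97, 9.28 and 9.42 in SphK-1 KO RA, groups that overlapped. That difference was 0.19 with a 95% interval of -0.12 to 0.51, and the difference between the oxygen effects was -0.54 ± 0.20 (adjusted p = 0.185). Keap1, whose product holds NRF2 back, differed by 0.23 in WT (95% interval -0.13 to 0.60) and by 0.04 in SphK-1 KO and was not called. These are levels of RNA, whereas NRF2 is chiefly controlled as a protein, which was not measured.

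Of the genes of glutathione supply, 3 of 5 were higher with oxygen in SphK-1 KO and 5 of 5 in WT. Slc7a11, which brings cystine into the cell, read 4.98, 6.47 and 5.98 in SphK-1 KO HO, against 3.46, 3.25 and 3.30 in SphK-1 KO RA. In WT it read 7.07, 7.00 and 6.16 in WT HO, against 3.63, 3.37 and 3.64 in WT RA. All 6 room air values lay under 4.74, below which 95% of the values of 1394 olfactory and vomeronasal receptor genes fell. Taken against that level, Slc7a11 was at least 2.10-fold higher in SphK-1 KO HO and at least 4.02-fold higher in WT HO, and the fitted differences were 2.47 ± 0.34 (adjusted p = 0.00335) and 3.20 ± 0.34 (adjusted p = 9.07e-05). The second transcript named Slc7a11 had lower values and was not called in any comparison.

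Gclc, the catalytic subunit of the enzyme that makes the first bond of glutathione, rose with oxygen in both genotypes. It read 9.79, 11.08 and 10.11 in SphK-1 KO HO, against 9.09, 9.29 and 9.15 in SphK-1 KO RA, and 11.50, 11.70 and 11.41 in WT HO, against 8.72, 8.94 and 8.87 in WT RA. Hyperoxia and room air did not overlap in either genotype, and every SphK-1 KO HO lung lay below every WT HO lung. The oxygen effect was 1.15 ± 0.26 in SphK-1 KO (adjusted p = 0.0477) and 2.69 ± 0.26 in WT (adjusted p = 5.45e-05), a difference between effects of -1.55 ± 0.37 (adjusted p = 0.0369). The SphK-1 KO HO mice varied widely, with SphK-1 KO HO 2 close to WT HO. Leaving out single arrays raised the adjusted p of the difference between effects above the threshold for 11 of the 12 arrays (up to 0.0922 over the alternatives run), and the call of the knockout effect was lost for 10 of them. Gclm, the modifier subunit, read 8.52, 8.74 and 8.44 in SphK-1 KO HO, against 9.28, 9.33 and 9.21 in WT HO, and was lower in the knockout by 0.71 ± 0.13 (adjusted p = 0.00687), a call kept under all 23 alternatives. Gsr, which recycles oxidised glutathione, rose in both genotypes, by 0.85 in SphK-1 KO (adjusted p = 0.0312) and 0.77 in WT (adjusted p = 0.0119), with a 95% interval of -0.47 to 0.62 for the difference between effects. Gss, which adds the last amino acid, was called in WT (1.18 ± 0.23, adjusted p = 0.00521) and reached 0.76 in SphK-1 KO (adjusted p = 0.135).

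In the thioredoxin system 4 of 6 genes were higher in WT HO and 2 of 6 in SphK-1 KO HO. Txnrd1, the cytosolic thioredoxin reductase, read 8.55, 9.11 and 8.61 in SphK-1 KO HO, against 7.67, 7.93 and 7.76 in SphK-1 KO RA, and 9.30, 9.49 and 9.43 in WT HO, against 7.88, 8.21 and 8.31 in WT RA. Oxygen separated the arrays fully in both genotypes, with effects of 0.97 ± 0.17 (adjusted p = 0.0144) and 1.28 ± 0.17 (adjusted p = 0.000513). The difference between these effects had a 95% interval of -0.84 to 0.24. Without SphK-1 KO RA 3 the knockout effect of Txnrd1 was no longer called. Srxn1, sulfiredoxin, which repairs overoxidised peroxiredoxins, rose by 1.18 ± 0.26 in SphK-1 KO (adjusted p = 0.0416) and 1.66 ± 0.26 in WT (adjusted p = 0.00133), and was lower in SphK-1 KO HO than in WT HO by 1.04 ± 0.26 (adjusted p = 0.0412). The mitochondrial pair Txn2 and Txnrd2 was called in WT only, at 0.78 and 0.64, against 0.17 and 0.25 in SphK-1 KO, and the differences between effects were not called (adjusted p = 0.265 and 0.268). Txn1 and the thioredoxin inhibitor Txnip were not called in any comparison, with Txnip at -0.54 in SphK-1 KO and -0.38 in WT.

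NADPH, which drives both systems, is made by the pentose phosphate pathway and by malic enzyme. Me1, malic enzyme, read 8.79, 8.71 and 8.75 in SphK-1 KO HO, against 7.57, 7.78 and 8.0 in SphK-1 KO RA, and 8.64, 8.51 and 8.77 in WT HO, against 7.84, 8.23 and 8.06 in WT RA. Both hyperoxia groups met at the same level. The effects were 0.97 ± 0.15 in SphK-1 KO (adjusted p = 0.00678) and 0.59 ± 0.15 in WT (adjusted p = 0.0183), and the 95% interval of SphK-1 KO HO minus WT HO was -0.21 to 0.44. Pgd and Taldo1 of the pentose phosphate pathway rose in WT by 1.29 and 1.36, with adjusted p of 0.00109 and 0.00101, and their differences in SphK-1 KO of 0.56 and 0.81 were not called (adjusted p = 0.194 and 0.0693). Taldo1 was lower in SphK-1 KO HO than in WT HO by 0.91 ± 0.21 (adjusted p = 0.0253).

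**Figure D3:**
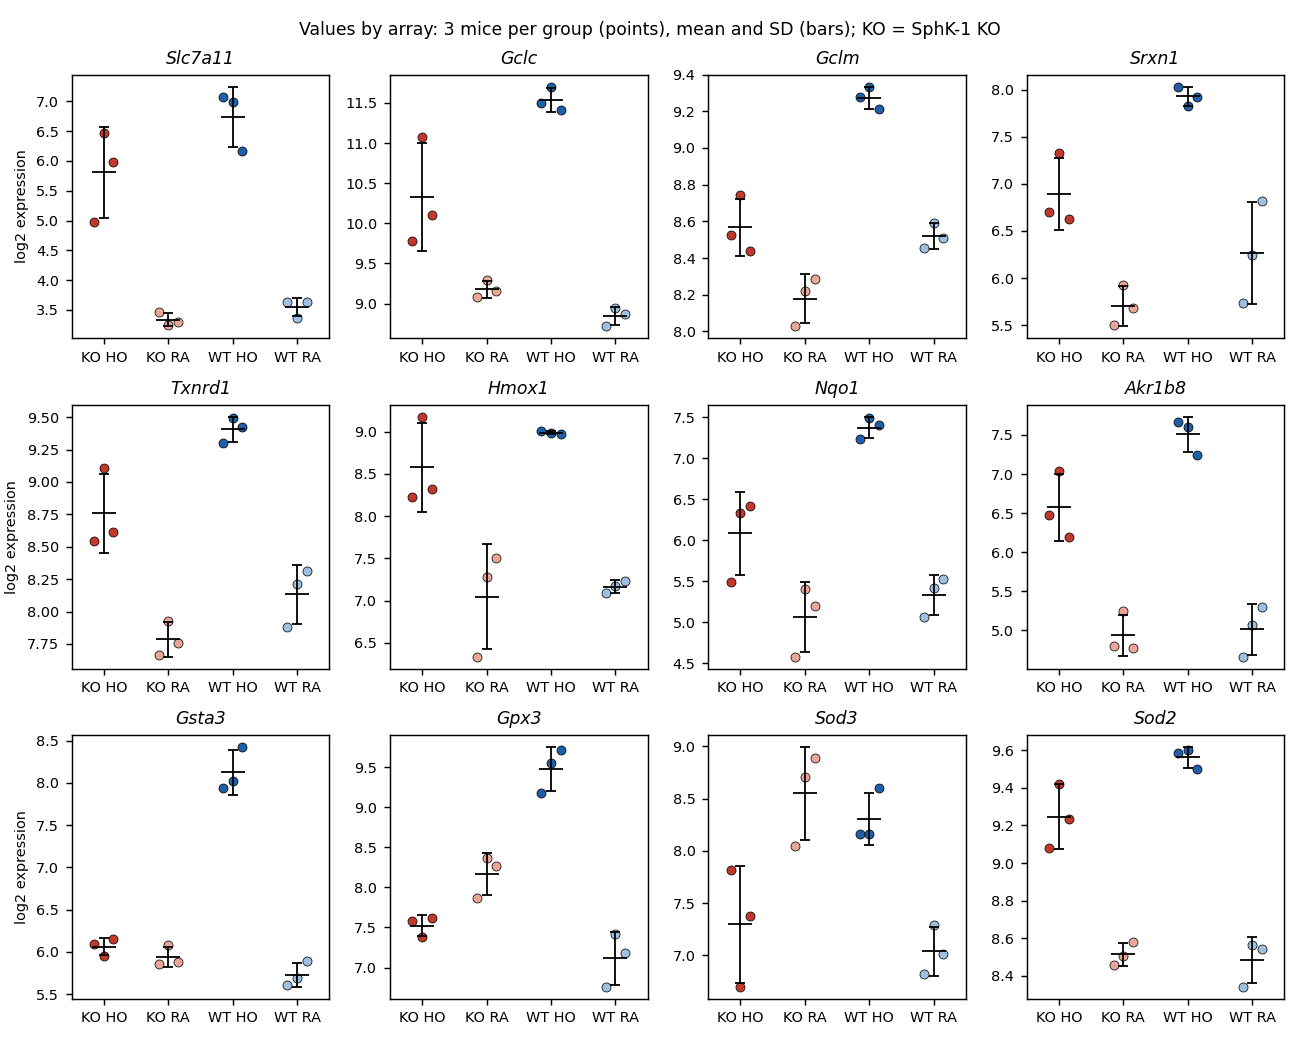
Log2 expression (y axis) of 12 genes in the 4 groups (x axis), with 1 point per mouse and bars for the mean and SD of 3 mice. Slc7a11, Txnrd1, Hmox1 and Sod2 are high in both hyperoxia groups, Gsta3 and Gpx3 are high in WT HO, and Sod3 is high in WT HO and in SphK-1 KO RA.

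The extracellular enzymes Gpx3 and Sod3 had the most negative differences between oxygen effects among the 40, with a positive estimate in WT and a negative one in SphK-1 KO. Gpx3, the secreted glutathione peroxidase, read 7.58, 7.38 and 7.61 in SphK-1 KO HO, against 7.87, 8.37 and 8.26 in SphK-1 KO RA, and 9.18, 9.55 and 9.71 in WT HO, against 6.76, 7.41 and 7.18 in WT RA. WT HO lay above all other groups, and SphK-1 KO RA lay above WT RA on every array. The oxygen effect was 2.36 ± 0.20 in WT (adjusted p = 2.42e-05) and -0.64 ± 0.20 in SphK-1 KO (adjusted p = 0.149). The difference between effects was -3.01 ± 0.29 (adjusted p = 0.000137), and it was called under all 22 alternatives that could be fitted.

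Sod3, the superoxide dismutase of the extracellular matrix, read 7.81, 6.70 and 7.37 in SphK-1 KO HO, against 8.05, 8.71 and 8.89 in SphK-1 KO RA, and 8.16, 8.16 and 8.60 in WT HO, against 6.82, 7.29 and 7.01 in WT RA. The oxygen groups were separate within each genotype, with hyperoxia the lower in the knockout and the higher in the wild type. The effect was -1.26 ± 0.29 in SphK-1 KO (adjusted p = 0.0495) and 1.27 ± 0.29 in WT (adjusted p = 0.0121). The difference between effects was -2.52 ± 0.41 (adjusted p = 0.00479), called under all 22 alternatives. The fall in the knockout alone was lost with the replicate number as a block (adjusted p = 0.062) and when any of 10 single arrays was left out, with adjusted p up to 0.241 over the alternatives.

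These were also the only genes of the 40 called between the genotypes in room air, where 0.556% of all transcripts and 0.793% of expressed genes were called higher and 0.590% and 1.20% lower. Gpx3 was higher in SphK-1 KO RA than in WT RA by 1.05 ± 0.20 (adjusted p = 0.0333) and Sod3 by 1.51 ± 0.29 (adjusted p = 0.0319). Neither call outlasted all single-array omissions: Gpx3 lost it without 6 of the 12 arrays in turn and Sod3 without 8, with adjusted p up to 0.124 and 0.116 over the alternatives. The median difference of the 40 in room air was -0.08, and 6 of them had an unadjusted p under 0.05, 3 higher and 3 lower in the knockout. Of all 41345 transcripts 5315 had such a p in this limma comparison, a share near that of the 40. Between-genotype and oxygen comparisons share the room air arrays, so these values are not independent of the oxygen effects above.

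The other glutathione peroxidases differed from Gpx3. Gpx1 and Gpx4, the cytosolic and the lipid peroxide enzyme, rose in WT by 0.70 ± 0.21 (adjusted p = 0.0455) and 0.64 ± 0.17 (adjusted p = 0.0254). In SphK-1 KO the differences of 0.82 (95% interval 0.36 to 1.28) and 0.40 (95% interval 0.03 to 0.77) were not called. At both genes the SphK-1 KO HO arrays lay above the SphK-1 KO RA arrays without overlap. The difference between effects had a 95% interval of -0.52 to 0.77 for Gpx1 and -0.76 to 0.29 for Gpx4. The WT call of Gpx1 was lost under 13 of 23 alternatives. Gpx8, an enzyme of the endoplasmic reticulum, read 9.94, 9.73 and 9.95 in SphK-1 KO HO, against 9.13, 9.41 and 9.42 in SphK-1 KO RA, and 9.05, 9.22 and 9.25 in WT HO, against 9.51, 9.69 and 9.46 in WT RA. It was the only gene of the 40 that was higher in SphK-1 KO HO than in WT HO, by 0.71 ± 0.13 (adjusted p = 0.00985), and the only one with a called positive difference between effects, 0.94 ± 0.19 (adjusted p = 0.0151). Gpx2 lay under 4.74 on all 12 arrays and is not read here.

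Sod2, the mitochondrial superoxide dismutase, read 9.08, 9.42 and 9.24 in SphK-1 KO HO, against 8.46, 8.51 and 8.58 in SphK-1 KO RA, and 9.58, 9.60 and 9.50 in WT HO, against 8.34, 8.57 and 8.54 in WT RA. It rose in both genotypes, by 0.73 ± 0.13 (adjusted p = 0.0116) and 1.08 ± 0.13 (adjusted p = 0.000179). Without SphK-1 KO RA 2 the knockout rise was not called. The cytosolic enzyme Sod1 and catalase were not called, with differences in WT of 0.18 (95% interval -0.10 to 0.46) and -0.22 (95% interval -0.66 to 0.21). In SphK-1 KO their differences were 0.40 (95% interval 0.12 to 0.67) and -0.43 (95% interval -0.86 to 0.003). The arrays of the 2 knockout groups did not overlap at Sod1 and did at catalase. Of the peroxiredoxins, which reduce peroxides with thioredoxin, the mitochondrial Prdx3 rose in WT by 0.90 ± 0.23 (adjusted p = 0.0242). Prdx4, of the endoplasmic reticulum, fell by 0.79 ± 0.19 in WT HO (adjusted p = 0.0154), the only gene of the 40 to do so, and differed by 0.09 in SphK-1 KO. Its call was lost without WT RA 2, WT HO 1 or WT HO 2, with adjusted p up to 0.0672.

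Prdx2, abundant in red cells, was not called, at 0.17 in SphK-1 KO and -0.39 in WT. Beside it, the score of red cell markers, of which 2 of 7 listed (Slc4a1 and Epb42) were measured, ran from -0.36 to 0.31 in SphK-1 KO HO, -0.17 to 0.30 in SphK-1 KO RA, -1.41 to -1.21 in WT HO and 0.78 to 1.49 in WT RA. Both markers fell in WT HO, and their part in the values of Prdx2 and of other genes that red cells express was not tested.

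Among the glutathione transferases, which join glutathione to reactive compounds, 4 of 5 were higher in WT HO and none was called by limma in SphK-1 KO, where the 5 estimates ran from -0.14 to 0.59 and 1, Gsta4, had an unadjusted p under 0.05. Gsta3 had the sharpest contrast. It read 6.09, 5.95 and 6.15 in SphK-1 KO HO, against 5.85, 6.08 and 5.88 in SphK-1 KO RA, and 7.93, 8.02 and 8.43 in WT HO, against 5.61, 5.69 and 5.89 in WT RA. WT HO lay above every other array, and the other groups lay within 5.61 to 6.15. Its effect was 0.12 in SphK-1 KO (95% interval -0.21 to 0.46) and 2.39 ± 0.15 in WT (adjusted p = 3.26e-06), with a difference between effects of -2.27 ± 0.22 (adjusted p = 0.000124), called under all 22 alternatives. Gstm1 followed with -0.11 in SphK-1 KO and 0.65 ± 0.12 in WT (adjusted p = 0.00399), a difference between effects of -0.76 ± 0.17 (adjusted p = 0.0292) whose call was lost on leaving out any of 9 single arrays. Gstp1 rose by 1.34 ± 0.20 in WT (adjusted p = 0.00084), and the difference between effects, -1.08 ± 0.28, missed the threshold (adjusted p = 0.0505). Gsta4 was called in WT at 0.85, and Gstm2 was called in no comparison. These families hold near-identical copies, such as Gstp1 and Gstp2, whose probes may not be told apart.

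Club cells of the airways express many such enzymes. The score of the 5 club cell markers ran from -0.59 to -0.22 in SphK-1 KO HO, -0.18 to 0.48 in SphK-1 KO RA, 0.15 to 0.53 in WT HO and -0.23 to 0.12 in WT RA. The club cell cytochrome Cyp2f2 was the only 1 of the 5 called, with 0.66 in WT, -0.85 in SphK-1 KO and a difference between effects of -1.52 ± 0.25 (adjusted p = 0.00541), whereas Scgb1a1 was not called in any comparison. The part of club cells in the values of Gsta3 was not tested.

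Heme and iron were represented by both genes measured. Hmox1, heme oxygenase, read 8.23, 9.18 and 8.32 in SphK-1 KO HO, against 6.34, 7.28 and 7.51 in SphK-1 KO RA, and 9.0, 8.98 and 8.97 in WT HO, against 7.09, 7.17 and 7.23 in WT RA. Oxygen separated the arrays in each genotype, and SphK-1 KO HO overlapped WT HO. The effects were 1.53 ± 0.30 in SphK-1 KO (adjusted p = 0.0222) and 1.82 ± 0.30 in WT (adjusted p = 0.00167), with a 95% interval of -1.21 to 0.64 for their difference. Without SphK-1 KO RA 2 or SphK-1 KO HO 2 the knockout call was lost. Fth1, the ferritin heavy chain that stores iron, rose by 0.91 ± 0.11 in WT (adjusted p = 0.000258) and was lower in SphK-1 KO HO than in WT HO by 0.53 ± 0.11 (adjusted p = 0.0167).

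The enzymes that act on quinones, carbonyls and epoxides had the highest group median in WT, 1.89, with 4 of 5 called there and 2 of 5 called in SphK-1 KO. Nqo1, a quinone reductase and common readout of NRF2, read 5.49, 6.33 and 6.42 in SphK-1 KO HO, against 4.58, 5.40 and 5.19 in SphK-1 KO RA, and 7.23, 7.49 and 7.40 in WT HO, against 5.06, 5.41 and 5.53 in WT RA. It was higher on each WT HO array than on any other, and the effect was 1.02 ± 0.27 in SphK-1 KO (adjusted p = 0.077) and 2.04 ± 0.27 in WT (adjusted p = 0.000404). Nqo1 was lower in SphK-1 KO HO than in WT HO by 1.29 ± 0.27 (adjusted p = 0.016), a call lost without WT HO 2 or WT HO 3, with Y-linked genes as covariate (adjusted p = 0.076) and with only high Xist arrays (adjusted p = 0.0584). Akr1b8, an aldose reductase relative, read 6.48, 7.04 and 6.20 in SphK-1 KO HO, against 4.80, 5.24 and 4.78 in SphK-1 KO RA, and 7.67, 7.60 and 7.25 in WT HO, against 4.66, 5.07 and 5.30 in WT RA. It rose by 1.63 ± 0.24 in SphK-1 KO (adjusted p = 0.00579) and 2.50 ± 0.24 in WT (adjusted p = 5.23e-05). Ephx1, microsomal epoxide hydrolase, rose by 0.72 ± 0.16 in SphK-1 KO (adjusted p = 0.0404) and 1.89 ± 0.16 in WT (adjusted p = 1.9e-05), and its difference between effects of -1.17 ± 0.22 (adjusted p = 0.0117) was called under all 22 alternatives. The carbonyl reductase Cbr3 rose in WT by 1.72 ± 0.29 (adjusted p = 0.00202), while Cbr1 was not called in any comparison.

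Under hyperoxia the knockout had lower levels of many of these genes. In SphK-1 KO HO against WT HO, 13 of the 40 were lower and 1 was higher, where 2.92% of all transcripts and 5.75% of expressed genes were called lower and 2.82% and 5.85% higher. The 13 were Gclc, Gclm, Srxn1, Taldo1, Gpx3, Gsta3, Gstm1, Gstp1, Fth1, Nqo1, Cbr3, Akr1b8 and Ephx1, all of which were among the 29 raised in WT HO, a comparison that shares the WT HO arrays. Their log2 differences ran from -2.06 for Gsta3 to -0.53 for Fth1. The median of the 40 was -0.51, against -0.01 over all transcripts. The oxygen effect itself differed between genotypes at 7 of the 40. The effect in SphK-1 KO minus that in WT was negative at Gclc, Gpx3, Sod3, Gsta3, Gstm1 and Ephx1 and positive at Gpx8. Of all transcripts 2.60% and 2.19% were called in these directions, and of expressed genes 4.75% and 4.48%. At Gpx3, Sod3, Gstm1 and Gpx8 the estimates of the genotypes had opposite signs.

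**Figure D4:**
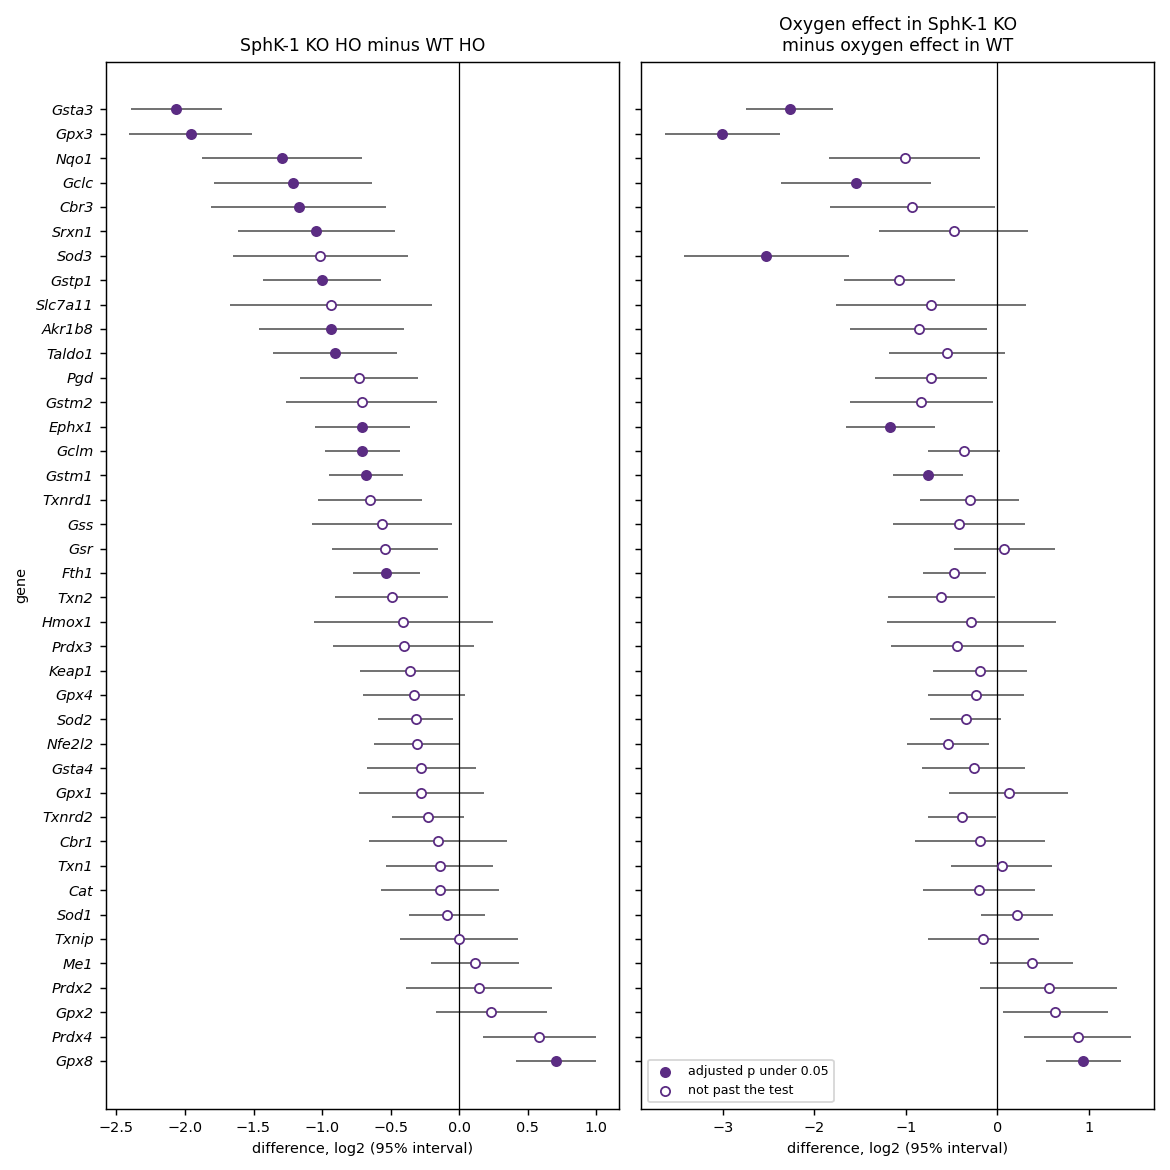
For each of the 40 genes (y axis), SphK-1 KO HO minus WT HO (left) and the oxygen effect in SphK-1 KO minus that in WT (right), as log2 differences with 95% intervals (x axis). Filled points passed the test at an adjusted p under 0.05, 13 left of 0 and 1 right of it on the left side, and 6 and 1 on the right side.

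The calls between genotypes under hyperoxia changed when single arrays were left out and when sex-linked genes entered the fit or chose its arrays. All 3 WT HO arrays had high Xist, while 2 of the 3 SphK-1 KO HO arrays had high Y-linked genes. A fit of only high Xist arrays thus held 1 SphK-1 KO HO array. The parts of sex and of lower power in these changes were not tested. The 13 lower calls became 6 with Y-linked genes as covariate and 6 with only high Xist arrays. They became 4 without WT HO 2, 5 without WT HO 3, 6 without WT HO 1, 6 without SphK-1 KO HO 3 and 7 without SphK-1 KO HO 1. Gclm, Gpx3 and Gsta3 were called lower under all 23 alternatives, Gstm1 without any single array, and Gpx8 stayed higher without any single array. The 10 calls of the knockout oxygen effect became 4 without SphK-1 KO RA 2, 5 without SphK-1 KO RA 3, and 6 without WT RA 2, SphK-1 KO RA 1, SphK-1 KO HO 3 or any 1 of the WT HO arrays, while Slc7a11, Me1 and Akr1b8 were called without any single array. Gsr and Ephx1 lost that call on leaving out any of 11 arrays and Srxn1 any of 10. Of the 30 wild type calls 23 held under all 23 alternatives, and the others, Txn2, Me1, Gpx1, Gpx4, Sod3, Prdx3 and Prdx4, were each lost on leaving out at least 1 wild type array.

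Markers of other cells also differed between the groups, not all in the order of the antioxidant genes. The score of 6 macrophage markers ran from -0.32 to 0.82 in SphK-1 KO HO, -0.68 to 0.00 in SphK-1 KO RA, 0.83 to 1.06 in WT HO and -0.87 to -0.65 in WT RA. Of these markers 4 were called higher in WT HO than in WT RA (Marco, Cd68, Mrc1 and Chil3) and 2 lower in SphK-1 KO HO than in WT HO (Cd68 and Chil3). Marco was also called higher in SphK-1 KO HO than in SphK-1 KO RA, by 1.39 against 1.13 in WT. In SphK-1 KO HO against WT HO, Marco (0.42) and Fabp5 (0.38) had positive estimates, neither of them called. The score of 6 alveolar type 2 markers ran from -0.05 to 0.15 in SphK-1 KO HO, 0.08 to 0.43 in SphK-1 KO RA, -0.73 to -0.21 in WT HO and 0.13 to 0.17 in WT RA, and 5 of the 6 were lower in WT HO than in WT RA. The score of the 4 ciliated cell markers measured of 5 listed ran from -0.23 to 0.33 in SphK-1 KO HO, -0.57 to -0.29 in SphK-1 KO RA, 0.53 to 0.58 in WT HO and -0.29 to -0.23 in WT RA. The score of 6 neutrophil markers ran from 0.43 to 0.99 in SphK-1 KO HO, -0.52 to -0.39 in SphK-1 KO RA, -0.51 to 0.01 in WT HO and -0.37 to 0.34 in WT RA. Ngp and Camp were higher in SphK-1 KO HO than in SphK-1 KO RA and WT HO, and lower in WT HO than in WT RA. The neutrophil markers S100a8, S100a9, Ltf and Mpo were not called in any comparison. In WT HO against WT RA the estimates of S100a8, S100a9 and Ltf were positive (0.18, 0.32 and 0.30), and that of Mpo was negative (-0.31).

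The score of 6 adipocyte markers ran from -0.61 to -0.30 in SphK-1 KO HO, -0.38 to 1.33 in SphK-1 KO RA, -0.12 to 1.10 in WT HO and -0.33 to 0.15 in WT RA, with SphK-1 KO RA 1 (1.33) and WT HO 2 (1.10) the highest. Cidec was the only 1 of these called, lower in SphK-1 KO HO than in SphK-1 KO RA and WT HO, and higher in WT HO than in WT RA. The score of 6 cardiac muscle markers ran from -0.86 to 0.47 in SphK-1 KO HO, -0.57 to 1.07 in SphK-1 KO RA, -1.13 to -0.08 in WT HO and 0.20 to 0.55 in WT RA, and Myl7 was lower in WT HO than in WT RA. The part of these cells in the antioxidant values was not tested.

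Other genes of the same pathways came from a list of 68, of which 62 were measured. In WT HO against WT RA 21 were higher (33.9%, against 8.58% of all transcripts and 16.0% of expressed genes), with a median of 0.31 over the 62. The 5 lower were 8.06%, near the 6.35% of all transcripts and under the 12.4% of expressed genes. The 4 with the smallest adjusted p among the higher were Chac1, a glutathione-degrading enzyme (2.07 ± 0.20), Slc3a2, the heavy chain that carries SLC7A11 to the membrane (1.76 ± 0.17), Sqstm1, the p62 adaptor that binds KEAP1 (1.37 ± 0.14), and Osgin1, a known NRF2 target (1.64 ± 0.17). Those lower included Sesn3, a sestrin (-1.11 ± 0.17), Nnt, a mitochondrial source of NADPH (-0.81 ± 0.15), Bach2, a repressor relative of NRF2 (-1.12 ± 0.23), and Slc40a1, the iron exporter (-0.76 ± 0.21).

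In SphK-1 KO HO against SphK-1 KO RA 1 of the 62 was higher, Sesn2 (1.03 ± 0.22, adjusted p = 0.035), and 2 were lower, Selenop (-0.93 ± 0.15, adjusted p = 0.00889) and Sesn1 (-1.0 ± 0.21, adjusted p = 0.0294). These shares, 1.61% and 3.23%, lay near the 2.09% and 2.68% of expressed genes called. In SphK-1 KO HO against WT HO 11 were lower (17.7%, against 2.92% of all transcripts and 5.75% of expressed genes), Chac1 (-1.71), Sqstm1 (-0.95), Aldh3a1, an aldehyde dehydrogenase (-1.09), and Osgin1 (-1.06) among them, and Sesn3 (0.96) and Slc40a1 (1.11) were higher, a share of 3.23% near the 2.82% of all transcripts. No gene of the 62 was called by limma between the room air groups, where 7 had an unadjusted p under 0.05, as did 5315 of all 41345 transcripts. The difference between effects was called negative at 11 (17.7%) and positive at 1 (1.61%), Sesn3 (1.18 ± 0.24). Of all transcripts 2.60% and 2.19% were called in these directions, and of expressed genes 4.75% and 4.48%. The share of positive calls thus lay below both. Selenop, a secreted selenoprotein like Gpx3, had effects of opposite sign, -0.93 in SphK-1 KO and 0.59 in WT, both called, with a difference of -1.52 ± 0.21 (adjusted p = 0.00188).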

How the data were processed

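Each of 12 MoGene 2.0 ST arrays held the lung RNA of 1 mouse. The deposited values are log2 expression per transcript, which the authors made in Partek Genomics Suite 6.6 by robust multi-array averaging (background correction, quantile normalization, summarization over probes). Genes were named through the platform's gene table: of 41345 transcripts, 23521 carried 1 symbol, 1820 several, and 16004 were unlisted. The transcript with the highest mean over 12 arrays stood for a gene. Expressed genes are those whose highest group mean reached the 40th percentile of all group means (4.29). Arrays were grouped by the submitters' labels.

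limma 3.58.1 in R 4.3.3 fitted 1 mean per group over all 12 arrays (lmFit, eBayes, with 3.247 prior degrees of freedom). P-values were adjusted across all transcripts by Benjamini-Hochberg and called under 0.05. The script was tested on simulated data. Intervals are 95% intervals of that fit. The methods describe an analysis of variance, run as the alternative with the ordinary variance. An exact permutation test of 3 against 3 mice cannot go below p = 0.1 and was not used. The number of arrays limits the precision. Whether the mice of a group were littermates is not given, so p-values measure the spread between these mice. Any of the 46 genes could be named, and of the other pathway genes called ones, at most 4 with the smallest adjusted p per direction and comparison. Members and lists were chosen with earlier results of these data known. Deviations of same-numbered arrays correlated at over 0.1 in all 3 pairs of SphK-1 KO HO and SphK-1 KO RA (0.40, 0.19 and 0.21). In no other comparison did all pairs do so, and the replicate block is therefore given for the knockout comparison. The block was shared by all groups in the fit and was not a pairing within the knockout. Further alternatives changed the spread estimate, filter, normalization, transcript choice, arrays in the fit, replicate block and sex-linked covariate, and 2 were chosen after seeing the data.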

Additional observations from a re-analysis of the deposited data

Results flagged for a closer look

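At 7 genes the oxygen effect differed between the genotypes by the limma interaction term, the oxygen effect in SphK-1 KO minus that in WT on the log2 scale. It was -3.01 for Gpx3 (adjusted p = 0.000137), -2.52 for Sod3 (adjusted p = 0.00479), -2.27 for Gsta3 (adjusted p = 0.000124), -1.55 for Gclc (adjusted p = 0.0369), -1.17 for Ephx1 (adjusted p = 0.0117), -0.76 for Gstm1 (adjusted p = 0.0292) and 0.94 for Gpx8 (adjusted p = 0.0151). Gpx3, Sod3, Gsta3 and Ephx1 passed the test under all 22 alternatives. The call of Gpx8 was lost when the 2 arrays that stood apart were left out or when only arrays with high Xist were used.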

How the results depend on the processing

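No difference of a single gene reversed a called direction under any alternative. The labels give no shared litter for a replicate number. Deviations of same-numbered arrays correlated at 0.40, 0.19 and 0.21 between SphK-1 KO HO and SphK-1 KO RA, and in every other combination of groups at least 1 pair was not over 0.1 (18 pairs in all, -0.06 to 0.40, 9 over 0.1). With the replicate number as a block, the higher and lower calls were 29 and 1 in WT HO against WT RA, 13 and 0 in SphK-1 KO HO against SphK-1 KO RA, 2 and 0 in SphK-1 KO RA against WT RA and 2 and 15 in SphK-1 KO HO against WT HO, and 2 positive and 8 negative differences between effects were called.

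Leaving out single arrays gave 23 to 29 higher and 0 to 1 lower in WT HO than in WT RA, with 23 on omitting WT RA 1, 4 to 10 higher and 0 to 1 lower in SphK-1 KO HO against SphK-1 KO RA, 0 to 2 higher and 0 to 1 lower in SphK-1 KO RA against WT RA, 1 to 2 higher and 4 to 18 lower in SphK-1 KO HO against WT HO (18 without SphK-1 KO HO 2), and 1 to 2 positive and 4 to 7 negative differences between effects.

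Lower calls in WT HO against WT RA became 2 with an intensity trend and robust prior, with further quantile normalization and with Y-linked genes as covariate. Higher calls in SphK-1 KO HO against SphK-1 KO RA became 6 with arrays centred on their median, 0 with only the arrays compared and 0 with only arrays of high Xist, and the lower call became 0 under these and with the ordinary variance, the block or the covariate. With the ordinary variance, median centring or only the arrays compared, 0 genes were higher in SphK-1 KO RA than in WT RA, and 1 was with only high Xist. Lower calls in SphK-1 KO HO against WT HO became 8 with the ordinary variance and 6 with only the arrays compared, with the covariate or with only high Xist. The higher call there became 2 with the 2 arrays that stood apart left out and 0 with only high Xist, and the positive difference between effects became 0 with only high Xist. The last alternative and the one without 2 arrays were chosen after seeing the data, and high Xist leaves 1 SphK-1 KO HO array, assumed to vary like the others. Using fewer arrays lowers the power. The cause of the other changes was not tested.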
